A study of Mus musculus with 6 samples.

Results

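The enzymes that write and remove methyl and acetyl groups on histones were read out of RNA sequencing of mouse macrophages given the chemokine CCL7. The entries were those whose symbol begins with Kdm, Kmt, Kat or Hdac followed by a digit, together with Ezh1, Ezh2, Setd1a, Setd1b, Setd2, Ehmt1, Ehmt2, Dot1l, Ep300 and Crebbp, and without Kdm5c and Kdm5d. They were 56 of the 25711 gene entries of the table: 16 methyltransferases, 16 demethylases, 10 acetyltransferases, 11 deacetylases, the pseudogenes Hdac1-ps and Kat2b-ps, and the antisense transcript Kdm6bos. The cells were bone marrow-derived macrophages of genotype WT, with 3 control libraries taken at 24 h and 3 libraries from cells given CCL7 at 500 ng/ml for 24 h. No agent other than CCL7 is named for either group, and the question behind the comparison was how CCL7 relates to macrophage polarization in rheumatoid arthritis. The labels do not state whether replicates were separate cultures or mice, so p-values describe the spread between these libraries, which may be technical.

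DNA is wrapped around histones, and enzymes that add or remove small groups on histone tails set how accessible a gene is. Methylation of lysine 27 on histone H3 (H3K27) by the Polycomb enzymes EZH1 and EZH2 is linked to silent genes, methylation of H3K4 to promoters and enhancers in use, and acetylation by p300 and CBP to active enhancers. In mouse macrophages these enzymes are known for shaping inflammatory responses: the H3K27 demethylase KDM6B is induced by bacterial lipopolysaccharide, and deacetylases bound to the corepressors NCoR and SMRT hold inflammatory genes down.

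The libraries held 34860523 to 51161400 counts. Levels below are the deposited FPKM (counts per kilobase of gene, scaled to the library total) divided by each library's TMM factor, a scaling that sets most genes equal between libraries, and are called TMM-scaled FPKM. All 10 macrophage markers were detected, with a summed level of 10819.7 to 11380.6 TMM-scaled FPKM in the controls and 23124.8 to 24922.5 with CCL7, most of it Lyz2. Within this list C1qb went down from 854 ± 27.8 to 594 ± 19.6 (SD, n = 3) and Cd68 from 862 ± 29.7 to 733 ± 39.0. Mertk stayed at 22.8 ± 1.11 and 22.7 ± 2.68, and the other members were higher with CCL7. Markers of 8 other cell types summed to at most 6.38 TMM-scaled FPKM per list in any control. With CCL7 the neutrophil list reached 83.8 to 90.5, mostly Mmp8 at 68.2 ± 6.53 (SD, n = 3). In the same list S100a8 went from 1.17 ± 0.112 to 17.6 ± 3.87 and Camp from 0.101 ± 0.0884 to 1.64 ± 0.405. The defining marker Ly6g was at 0 in the controls and 0.0150 ± 0.0259 with CCL7, and S100a9 at 0 and 0.135 ± 0.234. Elane, Ltf and Cxcr2 were lower with CCL7, with group means of at most 0.0229. The other lists summed to at most 1.90 with CCL7. The part of these markers in the results was not tested. CCL7 replicate 2 stood apart from the other CCL7 libraries at long genes, and since many of these enzymes are encoded by long genes, results that rest on it are given with and without it.

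With CCL7, the transcripts of histone-modifying enzymes mostly changed little or fell, apart from a few large changes. Ezh2, which encodes a silencing H3K27 methyltransferase, fell 4.99-fold, and Kmt5a, which encodes the enzyme that adds the first methyl group to H4K20, rose 2.50-fold. Kmt5c, Kdm2b, Hdac5 and Hdac6 fell between 1.85-fold and 1.96-fold. Of the 56 entries, 50 had a mean FPKM of at least 1 and entered edgeR's quasi-likelihood test, in which 23 fell, 8 rose and 19 did not pass an adjusted p of 0.05. The 31 called were 62% of the 50, against 69.1% of all 11143 genes tested, so the share of changed entries was not above that of the table. The lower calls were 46% of the 50 against 35.2% of all genes, and the higher calls 16% against 33.9%. The entries were longer than most genes, and beside genes of like length the excess of lower calls was smaller. At 4 to 8 kb of exons 40.6% of all genes and 52.6% of the 19 entries fell. At 8 kb or more it was 41.9% of all genes and 50% of the 24 entries. A test against a minimum fold of 1.5 (glmTreat on the same fit) called 6 of the 50, which is 12%, against 23.1% of all genes. The median log2 change of the 50 was -0.18, beside -0.01 over all genes tested. Groups did not overlap at 34 entries, 8 higher and 26 lower, against 35.9% higher and 37.8% lower of all genes, 73.7% together.

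**Figure D1:**
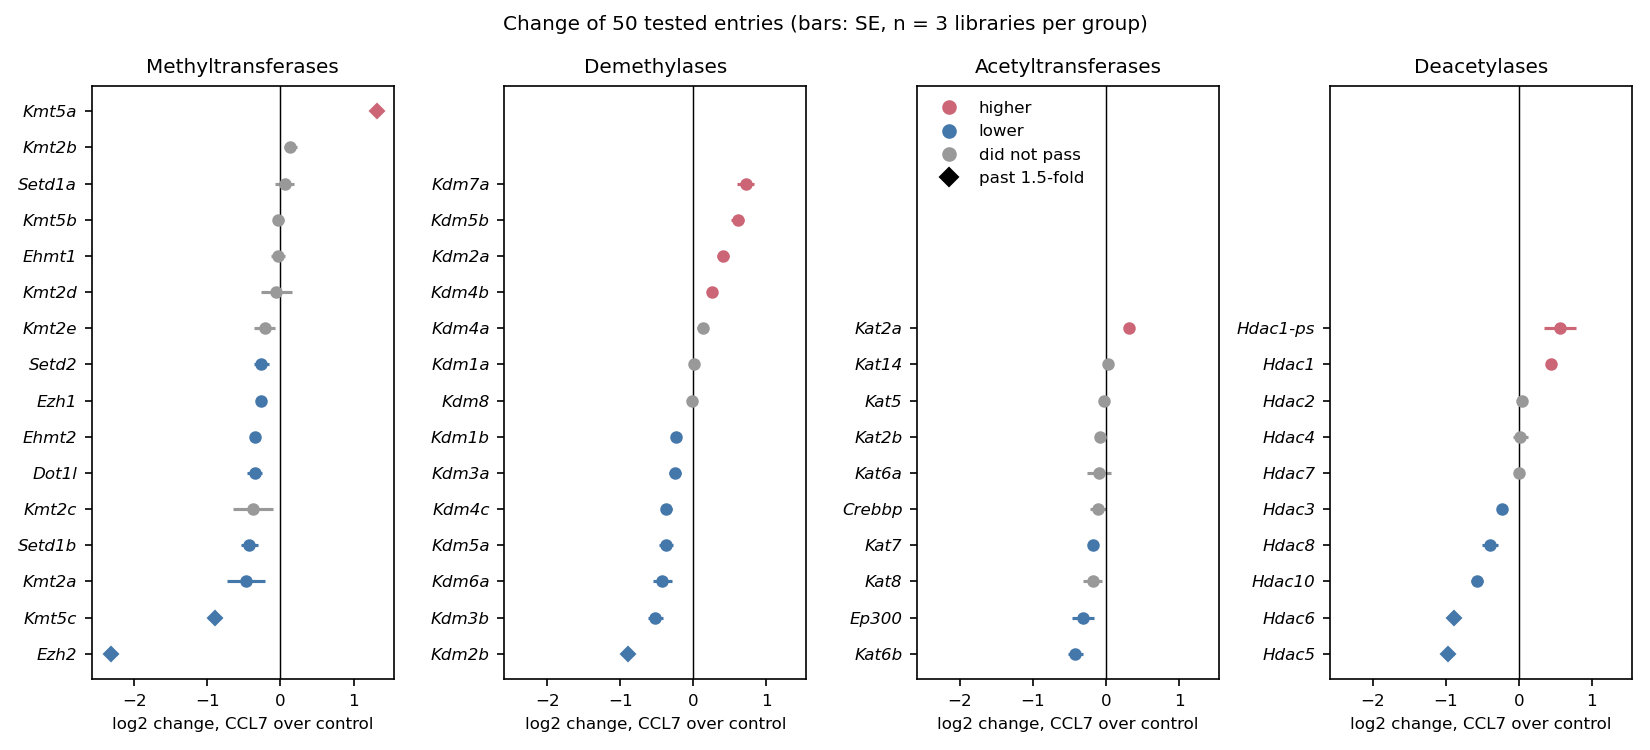
Log2 change (CCL7 over control, horizontal axis) of the 50 tested entries in 4 enzyme classes, with bars for the SE from 3 libraries per group. Red and blue points passed edgeR's adjusted p of 0.05 as higher or lower, grey points did not, and diamonds passed the test against 1.5-fold. Ezh2 lies far to the left at -2.32 and Kmt5a to the right at 1.32, and most other points lie within 1 log2 unit of 0.

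These counts depend on how the libraries are scaled to each other. With the deposited library totals in place of TMM, 38 of the 50 fell and 4 rose. Of all genes tested, 53.4% fell and 20.7% rose under that scaling. Their median moved from -0.01 to -0.25, and the higher share of all calls from 49.1% to 27.9%. The difference between the median of the 50 entries and that of all genes was -0.17 under both scalings. A change of scaling moves all genes by nearly the same amount, so it could hardly alter this difference. The difference was -0.12 without CCL7 replicate 2, and -0.24 for the 37 entries with a mean FPKM of at least 5. Without CCL7 replicate 2 the median of the 50 was -0.12, with 25 lower and 12 higher calls. Of the 49 tested enzymes other than the pseudogene Hdac1-ps, 7 rose and 23 fell (median -0.18, and -0.16 without CCL7 replicate 2). With the deposited totals Kat2a, Kdm2a and Kdm4b lost their calls (edgeR adjusted p = 0.177, 0.0526 and 0.802), as did Hdac1-ps. No called entry changed sign under any of 16 alternative settings.

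The largest change lay in the H3K27 methyltransferases, the catalytic subunits of Polycomb repressive complex 2. Ezh2, the subunit known to be most abundant in dividing cells, is on chromosome 6 (47530139 to 47595341, minus strand, GRCm38) and shares 2.6% of its exon bases with a transcript on the other strand. In the controls Ezh2 stood at 10.4, 10.0 and 9.69 TMM-scaled FPKM, and with CCL7 at 1.97, 1.86 and 2.21. Every CCL7 library lay far below every control. Ezh2 fell by 2.32 ± 0.08 on the log2 scale (SE, n = 3 per group, here and below; edgeR adjusted p = 7.66e-10, and 2.49e-09 against 1.5-fold). Ezh1, the paralogue known for its expression in resting cells, stood at 12.5, 12.7 and 12.2 in the controls and 10.9, 9.94 and 10.3 TMM-scaled FPKM with CCL7. The Ezh1 groups did not overlap either, but its change was much smaller (-0.26 ± 0.04, edgeR adjusted p = 0.000924). The bulk libraries do not tell fewer cells carrying a transcript apart from less of it per cell.

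Genes of DNA replication and mitosis fell with Ezh2. All 28 genes of a replication and mitosis list were tested and all 28 fell, against 35.2% of all genes. Their median log2 change was -2.81, beside -0.01 over all genes, with a range from -5.04 to -0.93. The list was chosen with earlier results of these data known. Tyms, Kif23 and Kif11 passed the expression filter only through the controls, where they were high. Ccnb2, which encodes a mitotic cyclin, fell most (log2 change -5.04 ± 0.13), and Kif11, a spindle motor, went from 22.7 ± 0.626 to 0.885 ± 0.0543 TMM-scaled FPKM. Plk1, a mitotic kinase, went from 29.4 ± 1.37 to 1.15 ± 0.116. The part of this in the change of Ezh2 was not tested. The Ezh2 promoter is printed because it was the only one of the 41 enzyme genes with a RefSeq promoter entry to hold the E2F string TTTGGCGC, the site bound by factors that turn on replication genes; the sequence is the gene's strand at chr6:47594981-47595280 (GRCm38.p6), 250 bases before and 50 after the start, with the match in capitals at bases 254 to 261.
Ezh2 promoter: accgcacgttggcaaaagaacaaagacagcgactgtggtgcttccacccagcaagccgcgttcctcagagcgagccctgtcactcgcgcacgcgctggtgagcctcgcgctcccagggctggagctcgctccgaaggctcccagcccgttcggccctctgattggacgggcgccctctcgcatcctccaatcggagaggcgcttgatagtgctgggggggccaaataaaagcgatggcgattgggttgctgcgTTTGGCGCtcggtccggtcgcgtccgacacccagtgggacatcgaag
The string, searched on both strands, stood in 0.514% of 32851 mouse promoter entries of the same length and in 4 of the 23 replication and mitosis genes with a promoter entry. A gene is counted if any of its entries holds the string, so gene counts and shares of entries are not in like units. A match describes letters only and is no evidence of binding.

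Kmt5a carried the largest rise among the enzymes. KMT5A places the first methyl group on H4K20, a mark that comes and goes with the cell cycle, and KMT5B and KMT5C extend it to the dimethyl and trimethyl forms. Kmt5a (chromosome 5, 124439930 to 124462308, plus strand) stood at 15.8, 16.1 and 16.3 TMM-scaled FPKM in the controls and 40.1, 42.0 and 38.5 with CCL7. The 3 CCL7 libraries lay well above the controls and close to each other. Kmt5a rose by 1.32 ± 0.04 on the log2 scale (edgeR adjusted p = 4.54e-09, and 1.06e-07 against 1.5-fold), and it moved from the fifth highest level among the 53 enzymes to the highest. Kmt5c (chromosome 7, 4740115 to 4747514, plus strand) went the other way, from 14.2, 14.4 and 14.5 to 7.44, 7.08 and 8.59 TMM-scaled FPKM. Its groups were far apart, and it fell by 0.90 ± 0.08 (edgeR adjusted p = 1.23e-06, and 0.000663 against 1.5-fold). Kmt5b lay at 3.47, 3.55 and 3.50 in the controls and 3.49, 3.10 and 3.70 with CCL7, so its groups overlapped and it did not pass the test (-0.03 ± 0.08, edgeR adjusted p = 0.685). Kmt5a made up 47.3% ± 0.148 of the summed level of the 3 genes in the controls and 78.3% ± 2.36 with CCL7 (SD, n = 3).

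The first of the 3 RefSeq promoter entries of Kmt5a is printed as that of the enzyme gene with the largest rise; it lies at chr5:124439680-124439979 (GRCm38.p6, plus strand), and its capitals, bases 16 to 25, match the kappaB string, GGGA then any 4 bases then CC, on the opposite strand.
Kmt5a promoter: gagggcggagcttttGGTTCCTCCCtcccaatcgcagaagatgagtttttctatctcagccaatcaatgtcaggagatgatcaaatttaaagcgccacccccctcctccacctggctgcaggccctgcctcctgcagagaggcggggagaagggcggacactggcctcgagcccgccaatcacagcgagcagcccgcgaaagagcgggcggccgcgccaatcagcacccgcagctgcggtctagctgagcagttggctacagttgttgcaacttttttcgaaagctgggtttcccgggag
That string, the general form of a site for NF-kappaB, stood in 20.7% of all promoter entries and in 13 of the 41 enzyme genes, among them the falling Kdm2b. Genes with several entries, such as Kmt5a, are counted if any entry matches, so these gene counts and shares of entries are not directly comparable. Of the other strings searched on both strands, the interferon-response string, GAAA then any 2 bases then GAAA, stood in 3.44% of all promoters and in 1 of the 41, the promoter of Kat5. The AP-1 string TGANTCA stood in 7.81% and in 6 of the 41, the cell cycle string TTTGAA in 17.9% and in 7 of the 41, and the cyclic AMP response string TGACGTCA in 1.79% and in none of these windows.

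Among the H3K4 methyltransferases, 2 of 7 fell (28.6%, against 35.2% of all genes) and none rose (against 33.9%). Setd1b, a source of promoter H3K4 trimethylation, went from 6.41 ± 0.263 to 4.77 ± 0.634 TMM-scaled FPKM (-0.43 ± 0.12, edgeR adjusted p = 0.00140), and its partner by sequence Setd1a from 5.53 ± 0.302 to 5.74 ± 0.793 (0.06 ± 0.13, edgeR adjusted p = 0.619). Without CCL7 replicate 2, Setd1a was called higher (0.16, edgeR adjusted p = 0.0199). Kmt2a, which encodes the MLL protein disrupted in leukaemia, stood at 7.49, 7.63 and 7.26 in the controls and 6.11, 3.65 and 6.36 TMM-scaled FPKM with CCL7. All CCL7 values lay below the controls, with replicate 2 far below the rest. Kmt2a fell by 0.47 ± 0.26 (edgeR adjusted p = 0.0263) but by 0.26 without CCL7 replicate 2, and it lost its call without each control in turn (edgeR adjusted p from 0.0547 to 0.0683) and in DESeq2 (adjusted p = 0.0623). Kmt2c and Kmt2d, which methylate enhancers, did not pass (-0.38 ± 0.27 and -0.06 ± 0.21), although Kmt2c was called lower when any CCL7 library was left out (edgeR adjusted p from 0.0189 to 0.0475), at -0.16 without replicate 2. Without CCL7 replicate 2, Kmt2d was called higher at 0.12 (edgeR adjusted p = 0.00961). Kmt2b went from 7.88 ± 0.0137 to 8.65 ± 0.904, and Kmt2e, whose product has a SET domain with little known activity, from 11.2 ± 0.172 to 9.62 ± 1.60, and neither passed. Without CCL7 replicate 2, Kmt2b was called higher (0.22 in place of 0.13, edgeR adjusted p = 0.000149) and Kmt2e was at -0.09 in place of -0.22, still without a call.

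The H3K9 methyltransferase genes Ehmt2 and Ehmt1 encode G9a and GLP, which work as a pair. Ehmt2 had the highest level of the 53 enzymes in the controls, 47.4, 47.5 and 48.2 TMM-scaled FPKM, and 37.0, 35.8 and 39.2 with CCL7. It fell without overlap (-0.35 ± 0.04, edgeR adjusted p = 8.74e-05) and was second to Kmt5a with CCL7. Ehmt1 went from 7.09 ± 0.197 to 6.91 ± 0.772 and did not pass (-0.04 ± 0.10). Setd2, which places H3K36 trimethylation behind the polymerase, fell by 0.26 ± 0.11 (by 0.17 without CCL7 replicate 2, still called), and Dot1l, the H3K79 methyltransferase, by 0.36 ± 0.11, both without overlap between groups.

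Of the 14 demethylases tested, 7 fell (50%, against 35.2% of all genes), 4 rose (28.6%, against 33.9%) and 3 did not pass. Kdm2b, which removes methyl groups from H3K36 and brings a Polycomb complex to CpG islands, lies on chromosome 5 (122870665 to 122989823, minus strand) and shares 5.8% of its exon bases with Rnf34 on the other strand. It stood at 4.30, 3.99 and 3.96 TMM-scaled FPKM in the controls and 2.27, 2.05 and 2.26 with CCL7. Every CCL7 library lay far below the controls, and Kdm2b fell by 0.90 ± 0.06 (edgeR adjusted p = 5.04e-07, and 0.000337 against 1.5-fold). Its paralogue Kdm2a, with the same H3K36 activity, stood at 8.71, 8.87 and 9.03 in the controls and 12.2, 10.5 and 12.6 TMM-scaled FPKM with CCL7. Kdm2a rose without overlap (0.41 ± 0.08, edgeR adjusted p = 0.000358).

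Kdm7a, whose product demethylates H3K9 and H3K27, had the largest rise among the tested demethylases, from 6.82 ± 0.0828 to 11.2 ± 1.49 TMM-scaled FPKM. It rose by 0.72 ± 0.12 (edgeR adjusted p = 3.08e-05), missed the test against 1.5-fold (adjusted p = 0.0894) and passed it without CCL7 replicate 2. Kdm8, a jumonji hydroxylase, was at 2.42 ± 0.0468 and 2.39 ± 0.0657. In the H3K4 demethylase pair, Kdm5b rose from a low 1.08 ± 0.0259 to 1.65 ± 0.172 (0.61 ± 0.09, edgeR adjusted p = 6.78e-05), while Kdm5a fell from 6.33 ± 0.0773 to 4.89 ± 0.525 TMM-scaled FPKM (-0.37 ± 0.09). The H3K9 demethylases Kdm3b (-0.52 ± 0.11) and Kdm3a (-0.25 ± 0.08) fell, as did Kdm4c (-0.37 ± 0.07). Kdm4b rose (0.25 ± 0.05, edgeR adjusted p = 0.00317), and Kdm4a, with the highest level of the group at 14.8 ± 0.439 and 16.1 ± 1.25, did not pass (0.13) but was called higher without CCL7 replicate 2 (0.18, edgeR adjusted p = 0.00215). Of the flavin-dependent H3K4 demethylases, Kdm1b fell (-0.24 ± 0.07) and Kdm1a did not pass, at 10.5 ± 0.236 and 10.5 ± 0.333 TMM-scaled FPKM. Kdm1b lost its call without control replicate 2 (edgeR adjusted p = 0.0691).

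The H3K27 demethylase genes differed from each other. Kdm6a, on the X chromosome, fell from 5.34, 4.92 and 4.82 to 3.86, 3.15 and 4.22 TMM-scaled FPKM (-0.43 ± 0.13, edgeR adjusted p = 0.00267). Kdm6b, the member known as inducible in macrophages, was under the filter at 0.528, 0.562 and 0.604 in the controls and 1.40, 0.974 and 1.30 with CCL7, from 490 counts in the 3 controls and 1093 with CCL7. Its CCL7 values all lay above the controls. Kdm6b rose in a fit of all 25711 entries without the filter, in which 38.1% of entries were called (log2 change 1.17 ± 0.17, edgeR adjusted p = 4.18e-18 with that fit's own adjustment). It shares 4.1% of its exon bases with the antisense Kdm6bos, which had 4 and 7 counts.

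Of the 10 acetyltransferases, 3 fell (30%, near the 35.2% of all genes), 1 rose (10%, against 33.9%) and 6 did not pass. None passed the test against 1.5-fold, against 23.1% of all genes. Kat2a, which encodes the SAGA and ATAC subunit GCN5, rose from 14.2 ± 0.420 to 17.8 ± 0.635 TMM-scaled FPKM (0.32 ± 0.04, edgeR adjusted p = 0.000278). Its paralogue Kat2b (-0.09 ± 0.04) and the ATAC member Kat14 (0.02 ± 0.04) did not pass. Ep300, which encodes p300, stood at 18.2, 17.9 and 17.6 in the controls and 15.3, 11.7 and 16.2 with CCL7. It fell (-0.32 ± 0.15, edgeR adjusted p = 0.0172), with CCL7 replicate 2 lowest, a change of -0.19 without that library and no call without control replicate 1 (edgeR adjusted p = 0.0546). Crebbp, which encodes CBP, went from 4.88 ± 0.0753 to 4.54 ± 0.579 and did not pass. Of the MYST family, Kat7 fell from 17.3 ± 0.508 to 15.3 ± 0.154 (-0.18 ± 0.03, edgeR adjusted p = 0.00672, 0.125 without the filter). Kat6b fell by 0.42 ± 0.10 from 1.29 ± 0.0240, and it passed the filter through the controls. Kat5 (9.11 ± 0.201 and 8.95 ± 0.338), Kat6a (11.2 ± 0.322 and 10.5 ± 1.93) and the H4K16 acetyltransferase Kat8 (7.56 ± 0.780 and 6.67 ± 0.759) did not pass, although Kat8 was called lower without CCL7 replicate 2 (-0.28 in place of -0.18, edgeR adjusted p = 0.00699).

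Of the 9 deacetylases tested, 5 fell (55.6%, against 35.2% of all genes), 1 rose (11.1%, against 33.9%) and 3 did not pass. In both directions together 66.7% were called, near the 69.1% of all genes. Hdac5, a class IIa deacetylase that shuttles out of the nucleus when phosphorylated, lies on chromosome 11 (102194432 to 102230166, minus strand). It stood at 13.6, 13.5 and 13.7 TMM-scaled FPKM in the controls and 6.52, 6.54 and 7.83 with CCL7. The groups were far apart, with Hdac5 lower by 0.97 ± 0.09 on the log2 scale (edgeR adjusted p = 7.26e-07, and 0.000174 against 1.5-fold). Its class mate Hdac4 lay at 1.73, 1.85 and 1.75 in the controls and 1.94, 1.56 and 1.90 with CCL7, with overlap and no call (0.02 ± 0.10, edgeR adjusted p = 0.851). Hdac7, the third member, was at 3.18 ± 0.153 and 3.19 ± 0.106. Hdac6, the class IIb deacetylase of tubulin, on chromosome X (7930120 to 7947889, minus strand), stood at 6.19, 6.54 and 6.38 in the controls and 3.42, 3.42 and 3.51 TMM-scaled FPKM with CCL7. The values within each group were close, and Hdac6 fell by 0.88 ± 0.03 (edgeR adjusted p = 1.71e-07, and 0.000150 against 1.5-fold). Hdac10, whose product deacetylates polyamines, stood at 6.74, 6.15 and 5.58 in the controls and 4.23, 4.10 and 4.05 with CCL7. It fell without overlap (-0.58 ± 0.08, edgeR adjusted p = 9.10e-05) but missed the test against 1.5-fold (adjusted p = 0.877).

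Class I deacetylases act in the Sin3, NuRD, CoREST and NCoR complexes. Hdac1 stood at 19.9, 19.9 and 18.5 TMM-scaled FPKM in the controls and 26.4, 28.5 and 24.5 with CCL7. It rose without overlap (0.44 ± 0.07, edgeR adjusted p = 0.000122), while its partner Hdac2 was at 11.4 ± 0.0319 and 11.7 ± 0.339 and did not pass (0.04 ± 0.02, edgeR adjusted p = 0.455). Hdac3, the enzyme of the NCoR and SMRT corepressors, fell from 12.0 ± 0.339 to 10.3 ± 0.619 (-0.23 ± 0.06), and Hdac8 from 2.16 ± 0.259 to 1.65 ± 0.0794 (-0.39 ± 0.11). The pseudogene Hdac1-ps also rose (0.56 ± 0.22, edgeR adjusted p = 0.0148), with overlapping groups. Its exons copy Hdac1, so the reads of parent and copy may not be separable. It is among the 50 tested entries and the 8 higher calls but not among the deacetylases.

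**Figure D2:**
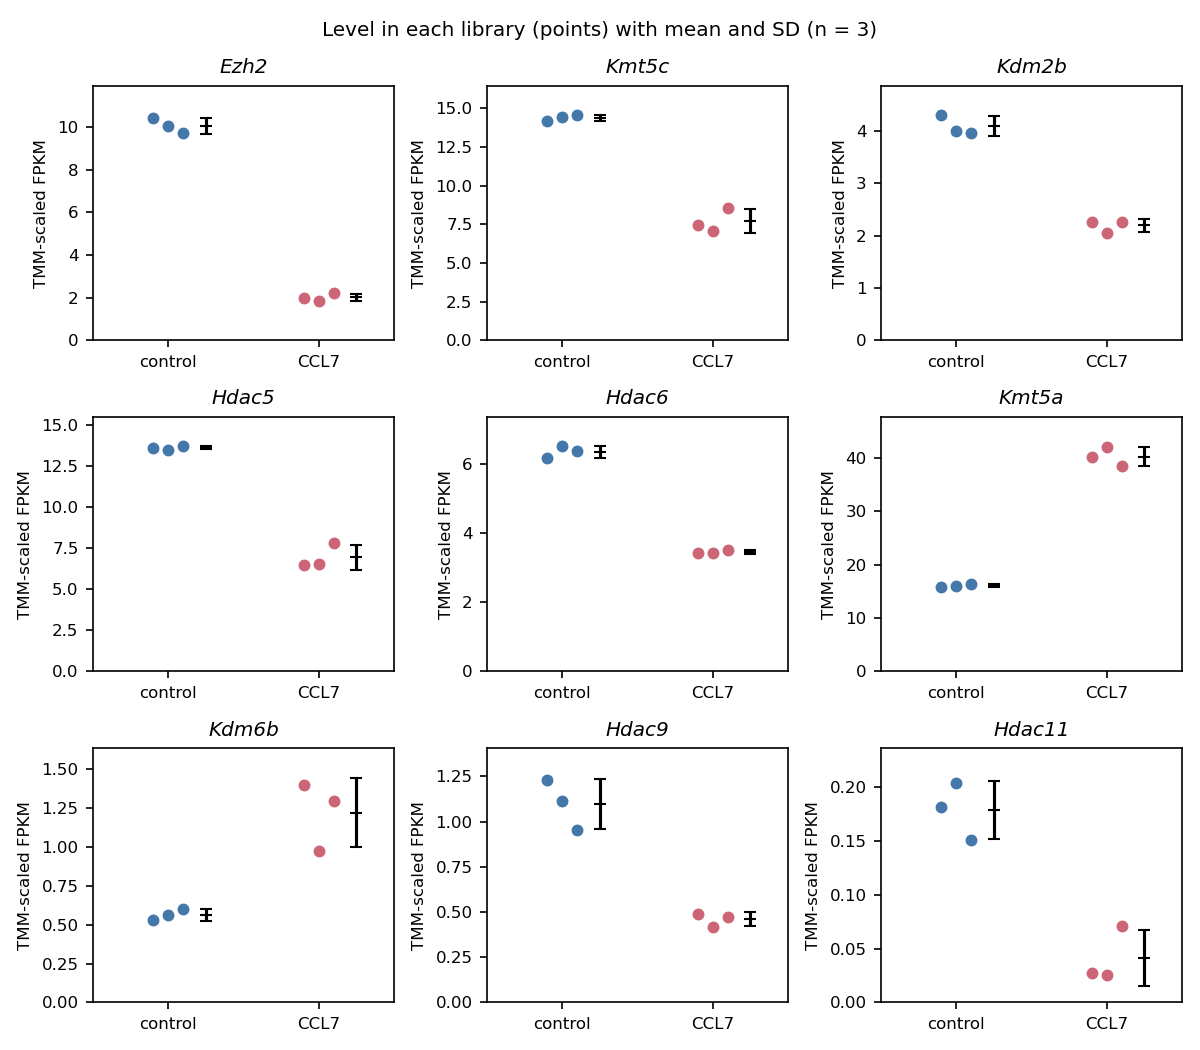
TMM-scaled FPKM (vertical axis, from 0) in each control and CCL7 library for the 6 enzymes that passed the test against 1.5-fold and for Kdm6b, Hdac9 and Hdac11, which were under the expression filter. Points are libraries and bars the mean and SD of 3. The groups are apart in all 9 panels, with Kmt5a and Kdm6b higher and the other 7 lower with CCL7.

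Besides Kdm6b, 5 entries were under the filter. Hdac9, the fourth class IIa member, went from 707, 797 and 536 counts to 344, 250 and 281. It fell without overlap in the unfiltered fit (-1.20 ± 0.13, edgeR adjusted p = 5.89e-30). Hdac11, the lone class IV deacetylase, went from 27, 38 and 22 counts to 5, 4 and 11 and also fell there (-2.06 ± 0.49, edgeR adjusted p = 3.28e-05), its 3 CCL7 libraries holding 20 counts in all. Counts in the controls and the CCL7 libraries were 6 and 4 for Kdm4d, for Kat2b-ps 2 and 0, and Kdm6bos 4 and 7, too few to compare. Adjusted p-values of the unfiltered fit are not comparable with those of the filtered one: for Ezh2 it gave 4.36e-197 in place of 7.66e-10.

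Summed over enzymes that act on the same mark, the controls and CCL7 libraries differed for some marks and overlapped for others. The summed level of Ezh1 and Ezh2 was 22.9, 22.7 and 21.9 TMM-scaled FPKM in the controls and 12.9, 11.8 and 12.5 with CCL7, of which Ezh2 made up 44.6% ± 0.732 and 16.3% ± 1.29. The opposing Kdm6a and Kdm6b summed to 5.59 ± 0.241 and 4.97 ± 0.740, with overlapping groups, although the share of Kdm6b went from 10.1% ± 1.08 to 24.6% ± 1.76, and without TMM they did not overlap (6.07 ± 0.268 and 4.58 ± 0.710). The ratio of the Ezh1 and Ezh2 sum to the Kdm6a and Kdm6b sum was 3.90, 4.13 and 4.04 in the controls and 2.45, 2.86 and 2.26 with CCL7, without overlap. Kdm7a, whose product also demethylates H3K27, is not in these sums, and a ratio with it was not computed. Its level, 6.82 ± 0.0828 in the controls and 11.2 ± 1.49 with CCL7, was above the Kdm6a and Kdm6b sum in both groups. For H4K20 the sum went from 34.0 ± 0.455 to 51.3 ± 0.748 through Kmt5a. Class IIa deacetylases went from 19.7 ± 0.218 to 12.4 ± 0.970, with Hdac5 at 69.3% ± 1.21 and 56.0% ± 1.95 of the sum. Class I deacetylases were at 45.0 ± 1.45 and 50.1 ± 2.95, with Hdac1 at 43.2% ± 0.527 and 52.7% ± 0.936, but without TMM the class I sum was 48.9 ± 1.58 and 46.1 ± 2.42 with overlap, so its direction depended on the scaling. The 6 H3K4 methyltransferases other than Kmt2e summed to 41.9 ± 0.996 and 37.6 ± 7.09, with overlap and with CCL7 replicate 2 alone at 29.5, and without TMM to 45.5 ± 1.06 and 34.7 ± 6.74 without overlap. RNA levels of these genes do not measure the enzymes or their marks.

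**Figure D3:**
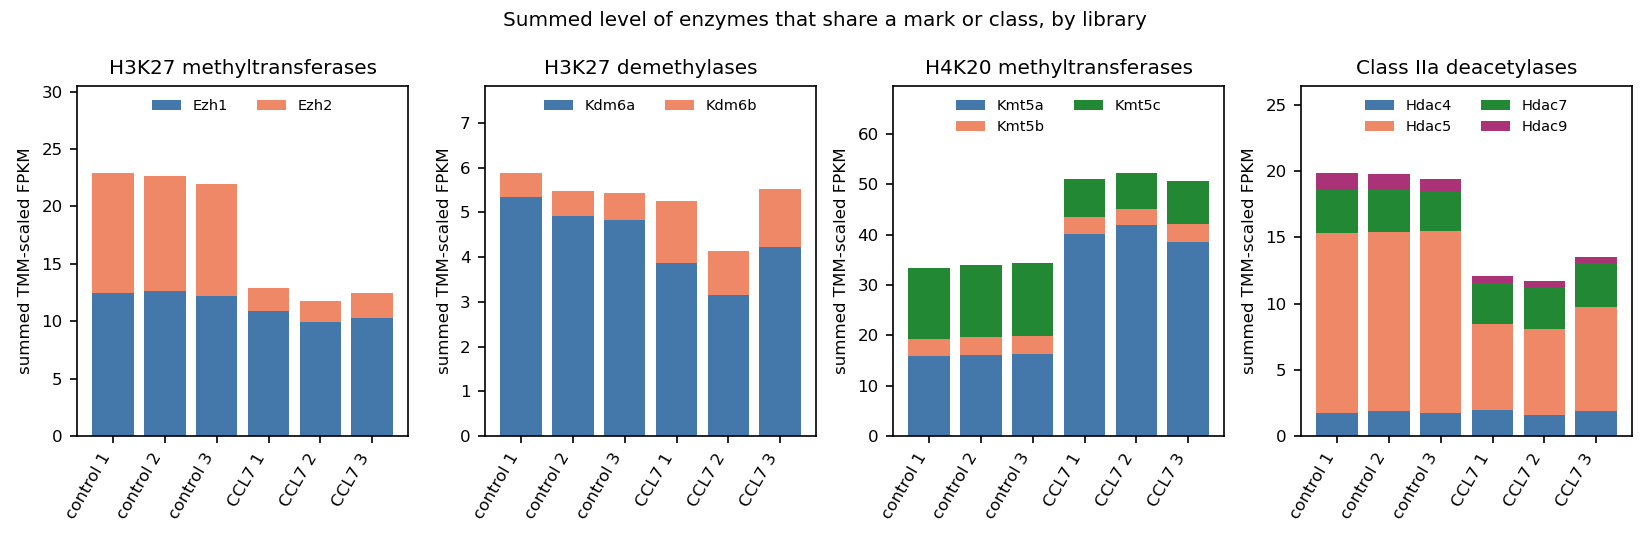
Summed TMM-scaled FPKM (vertical axis, from 0) of enzymes sharing a mark or class, stacked by gene, in each of the 6 libraries. The H3K27 methyltransferase bars are lower with CCL7 because the Ezh2 segment shrinks. The H3K27 demethylase bars, which hold Kdm6a and Kdm6b but not Kdm7a, overlap between groups. The H4K20 bars are taller through Kmt5a, and the class IIa bars are lower through Hdac5.

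A ratio of paralogues within a library does not depend on how libraries are scaled, so 17 pairs of related enzymes were compared on the log2 ratio of their FPKM. In 16 pairs both genes passed the filter, and in all 16 the ratio did not overlap between groups. Each gave p = 0.1 in a 2-sided permutation test, exact over 20 ways to assign the libraries (also 0.1 after adjustment over the 16), which is the smallest value 3 against 3 can give. Such separation was common, since 70.5% of all 1225 pairs among the 50 tested entries did not overlap. The sizes differed much more than the calls. Ezh2 relative to Ezh1 went from a ratio of 0.806 to 0.194, a log2 difference of -2.06 ± 0.08. Kdm2b relative to Kdm2a fell from 0.460 to 0.187 (-1.30 ± 0.06), and Hdac5 relative to Hdac4 from 7.67 to 3.87 (-0.99 ± 0.11). Kdm5b relative to Kdm5a went the other way, from 0.171 to 0.336 (0.98 ± 0.02). Kmt5c relative to Kmt5b went from 4.10 to 2.24 (-0.87 ± 0.04) and Kmt2b relative to Kmt2a from 1.06 to 1.65 (0.64 ± 0.17). The log2 ratio of Kmt2b to Kmt2a was 0.593, 1.06 and 0.519 in CCL7 replicates 1, 2 and 3. Its difference between groups was 0.48 without replicate 2, so a ratio free of library scaling can still rest partly on that library. The other 10 tested pairs lay between -0.48 for Setd1b over Setd1a and 0.33 for Kmt2d over Kmt2c. Kdm6b over Kdm6a, with Kdm6b under the filter, had a difference of 1.53 ± 0.13.

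**Figure D4:**
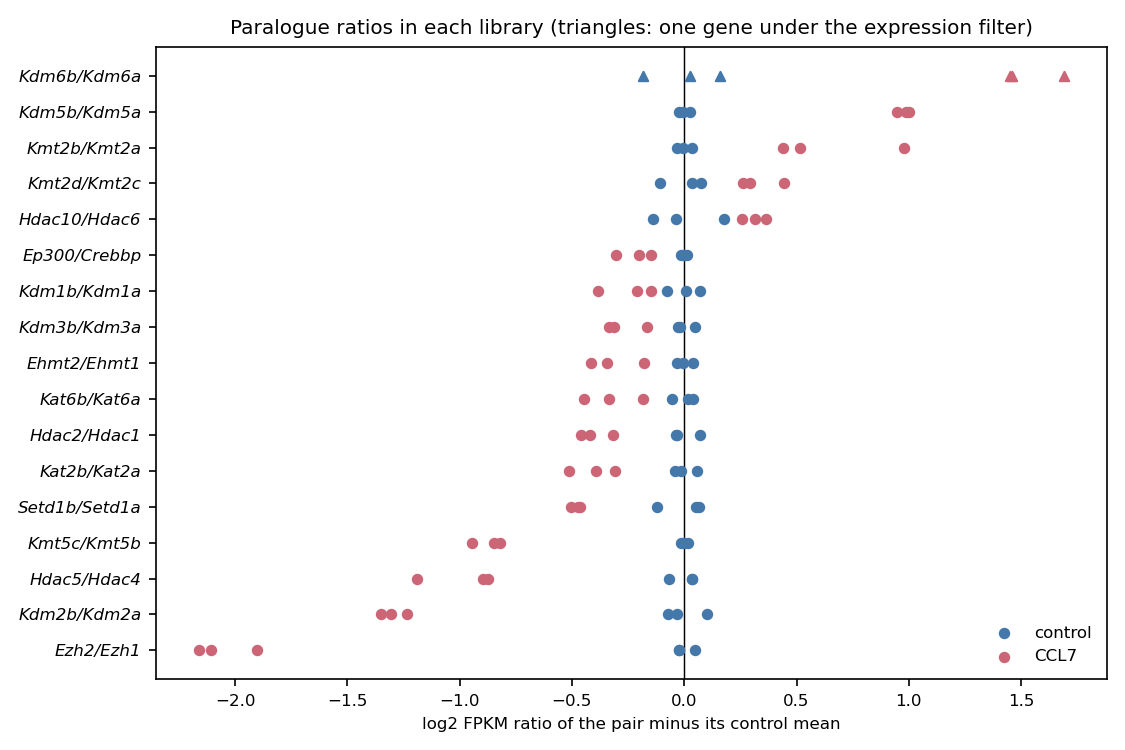
Log2 FPKM ratio of 17 paralogue pairs in each library, minus the pair's control mean (horizontal axis, log2 units). Blue points are controls and red points CCL7 libraries, with triangles for the pair that holds a gene under the filter. Red and blue points are apart in every pair, from near -2 for Ezh2 over Ezh1 to near 1.5 for Kdm6b over Kdm6a.

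CCL7 replicate 2 differed from the other CCL7 libraries in a way that followed gene length and touched the long enzyme genes most. The median summed exon length of the 50 tested entries was 7117.5 bases, against 4091 for all genes tested. Among the 24 of at least 8 kb, 23 were lowest in CCL7 replicate 2 among the CCL7 libraries, which is 95.8%, and so were 79.3% of all 1762 tested genes of that length. Their median offset, the log2 level in replicate 2 minus the mean of replicates 1 and 3, was -0.30 beside -0.19 for all genes of that length. The offset was -0.80 for Kmt2c, -0.77 for Kmt2a and -0.63 for Kmt2d, the longest of the H3K4 methyltransferase genes at 20.3, 16.7 and 19.9 kb. Against the control means, the 24 long genes had a median log2 level of -0.16 in CCL7 replicate 1, -0.51 in replicate 2 and -0.13 in replicate 3. The 26 shorter ones were at -0.04, -0.07 and -0.06. The changes of Ezh2 (-2.27 without replicate 2), Kmt5a (1.29), Kmt5c (-0.85), Kdm2b (-0.85), Hdac5 (-0.93) and Hdac6 (-0.88) were nearly as large without this library.

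**Figure D5:**
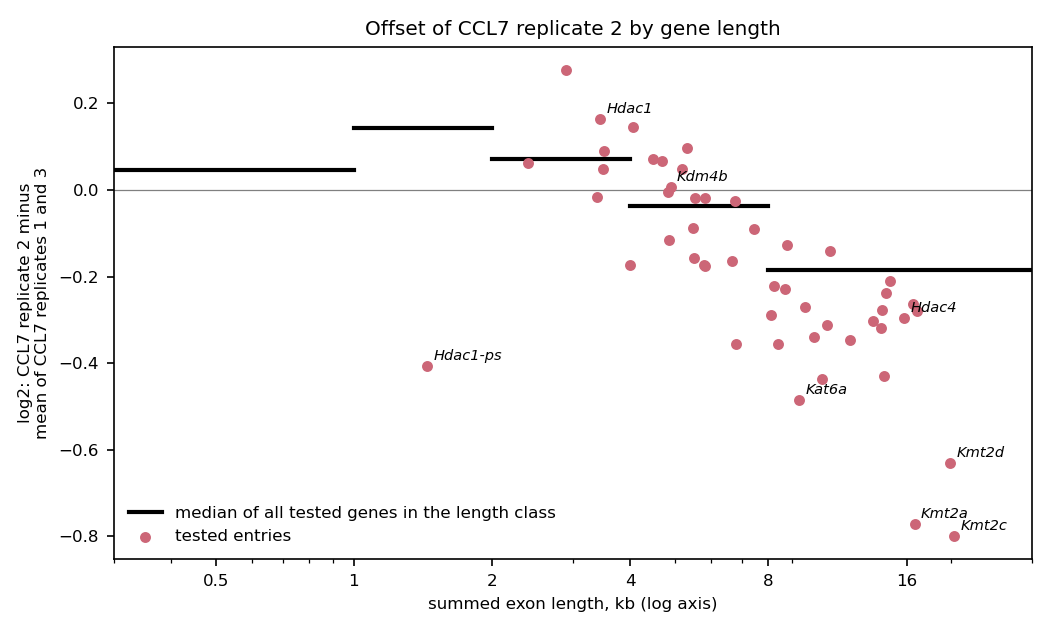
Offset of CCL7 replicate 2 from the mean of CCL7 replicates 1 and 3 (vertical axis, log2) against summed exon length (horizontal axis, kb, log scale) for the 50 tested entries, with black lines for the median of all tested genes in each length class. The offset of all genes goes from above 0 at 1 to 2 kb to -0.19 at 8 kb or more, and the entries of 8 kb or more have a median of -0.30.

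The partners of these enzymes were counted from lists of related genes, each against 33.9% higher and 35.2% lower over all genes. As for the enzymes, these counts depend on the scaling, and each is followed by the count with the deposited library totals. With those totals, 20.7% of all genes rose and 53.4% fell, the shares to set beside the counts under that scaling. Of 22 Polycomb subunits tested, 10 fell and 4 rose, with a median log2 change of -0.11 (15 and 2, median -0.35, with the deposited totals). Phf19, an accessory subunit that brings EZH2 to chromatin, fell from 7.44 ± 0.194 to 1.53 ± 0.192 TMM-scaled FPKM (-2.28 ± 0.11), and the chromobox genes Cbx7 (-1.72 ± 0.20) and Cbx2 (-1.68 ± 0.07) fell. Cbx7, Cbx2 and Cbx8 passed the filter only through the controls. The core subunit Eed rose (0.42 ± 0.04), as did Bmi1 (0.50 ± 0.02) and Phc2 (0.29 ± 0.02, no call with the deposited totals) of the other Polycomb complex. Suz12, also a core subunit, fell (-0.69 ± 0.04), as did Rbbp4 (-0.61 ± 0.04) and Rbbp7 (-0.83 ± 0.07). Of 22 other histone or arginine methyltransferases, 9 rose and 6 fell, with a median of 0.11 (7 and 11, median -0.13, with the deposited totals). Suv39h1, which trimethylates H3K9 in heterochromatin, fell from 9.12 ± 0.254 to 3.52 ± 0.190 (-1.37 ± 0.05), and Suv39h2 (-0.80 ± 0.07, past the filter only through the controls) and the H3K36 enzyme Nsd2 (-0.56 ± 0.08) fell. Smyd5 (0.85 ± 0.07), the arginine methyltransferase Prmt1 (0.60 ± 0.09) and Setd6 (0.50 ± 0.08) rose. Of 11 subunits of the COMPASS complexes that carry the H3K4 methyltransferases, 6 fell and 2 rose (median -0.24; 9 and 0, median -0.48, with the deposited totals), led by Psip1 (-1.20 ± 0.06), Paxip1 (-0.68 ± 0.08) and Rbbp5 (-0.37 ± 0.07) below and Wdr82 (0.15 ± 0.05) and Men1 (0.13 ± 0.04) above. With the deposited totals Wdr82 and Men1 turned to -0.09 and -0.10, without a call.

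Of 7 other jumonji-domain genes, 4 fell and 2 rose (median -0.22; the same counts, median -0.46, with the deposited totals). Riox2 (0.93 ± 0.05) and Jmjd6 (0.81 ± 0.10) rose, while Phf2, Hif1an and Jmjd1c fell by 0.34 to 0.43. Of 30 other acetyltransferases and subunits of acetyltransferase complexes, 15 fell and 6 rose (median -0.20; 21 and 0, median -0.44, with the deposited totals, where no rise kept its call). The coactivator Ncoa3 went from 41.2 ± 0.740 to 19.0 ± 2.05 TMM-scaled FPKM (-1.11 ± 0.09), Msl3, a partner of KAT8, fell by 0.85 ± 0.03 and Ncoa1 by 0.53 ± 0.09, and Brpf1 (0.38 ± 0.07), a partner of KAT6A, rose with Msl1 (0.27 ± 0.03) and Ing5 (0.27 ± 0.03). Of 26 deacetylase complex subunits and sirtuins, 14 fell and 7 rose (median -0.16; 18 and 2, median -0.39, with the deposited totals). Sirt3 (-0.61 ± 0.09), Sirt1 (-0.60 ± 0.05) and Gps2 (-0.47 ± 0.08) fell most, and Sirt6 (0.65 ± 0.10), Mbd3 (0.38 ± 0.03) and Sin3b (0.22 ± 0.05, but -0.01 with the deposited totals) rose most. Of 22 acetyl-lysine readers, 12 fell and 6 rose (median -0.21; 14 and 2, median -0.44, with the deposited totals). Atad2 (-1.82 ± 0.09), Mllt3 (-1.19 ± 0.13, past the filter only through the controls) and Brd9 (-0.95 ± 0.07) fell most, and Baz1a (0.55 ± 0.06), Brd2 (0.45 ± 0.02) and Atad2b (0.34 ± 0.14, no call with the deposited totals) rose most.

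Some enzyme genes share exon bases with neighbours, and the strand setting of the counting is not given in the sources used here. By GENCODE M21, 22 of the 56 entries share exon bases with another gene. The share was 51.8% for Setd1a with Gm49388 and 14.7% for Kat14 with Pet117, both on the same strand. With genes on the other strand it was 24.6% for Kdm3b and 22.4% for Hdac4 (lincRNAs), 12.1% for Kat5 (Rnaseh2c) and 9.3% for Kmt2e (Srpk2). Kdm1b shares 9.2% with Dek on the other strand, which went from 22776 to 9149 counts. In shared bases, reads of partners on the other strand cannot be told apart without strand. Those of partners on the same strand cannot be told apart by strand at all. Of the entries that passed the test against 1.5-fold, Kdm2b shared 8.7% with 3 genes together, Ezh2 2.6% and Hdac5 1.3%, and Kmt5a, Kmt5c and Hdac6 shared none.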

How the data were processed

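RNA from 6 libraries was measured by sequencing. The deposited table gives an unnormalized count of reads per gene and library, per the file headers and the values, and an FPKM value, which the authors made by dividing that count by gene length and library total. The submitters' processing notes list Bowtie 0.12.2 and both mm8 and mm9 without saying what each was used for. Which program counted reads, on which strand and with which annotation, is not given in the sources used here. Gene lengths equalled GENCODE M21 (GRCm38) for 54 of the 56 entries, and coordinates come from there by gene identifier. Promoters come from RefSeq (GRCm38.p6).

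edgeR 4.0.16 was run on the counts (R 4.3.3; glmQLFit, glmQLFTest and glmTreat at 1.5-fold, TMM, group only, 2-sided) over the 11143 genes whose mean FPKM reached 1, with Benjamini-Hochberg adjustment over them and a threshold of 0.05, and was tested on simulated data. Entries below the filter come from a fit of all 25711. Log2 changes are CCL7 over control, and SEs come from the SDs of log2 TMM-scaled CPM. DESeq2 1.42.0 and limma 3.58.1 were alternatives. The spread between libraries (biological coefficient of variation) was 6.81%. No pair of libraries of the same group agreed within counting noise. The chi-square per degree of freedom was 35.3 and 37.1 for the pairs with CCL7 replicate 2 and 4.33 to 8.23 for the others. Small even counts were in excess (66.0% of values from 1 to 9, 50.1% of those of 100 or more), so halved counts were an alternative.

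The genes and lists were chosen with earlier results of these data known. Every entry is named. Values per library are given for entries past 1.5-fold and their paralogues and for others the results turn on. From each list of partners at most 3 genes per direction are named, those with the largest change among the called. Suz12, Rbbp4 and Rbbp7 are named in addition, as are list genes that passed the filter only through the controls.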

Additional observations from a re-analysis of the deposited data

How the results depend on the processing

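The changes of the tested entries, the call counts and the median were recomputed under up to 16 alternatives. Kdm6b, Hdac9 and Hdac11 were refitted without each library in turn, with the deposited totals and with a replicate block. Summed levels and lists of partners were recomputed only without TMM. Of the 31 called entries, 23 kept call and direction in every alternative that tested them (19 lower; Hdac1, Kdm5b, Kdm7a and Kmt5a higher), and no called entry turned sign. With the deposited library totals, 4 entries rose and 38 fell, all genes gave 2306 and 5949, all genes lower past 1.5-fold were 2075, and the entries' median was -0.42. With limma, on FPKM without TMM, entries were 4 and 37 under either pseudocount, all genes 2288 and 5936 (pseudocount 1) or 2284 and 5916 (0.1), and the median -0.36 or -0.41. Without the filter 3 entries rose past 1.5-fold, and 1882 and 2078 of all genes; at a mean FPKM of at least 5, 2599 of all genes fell and 794 and 756 passed 1.5-fold, with fewer genes tested. Leaving out each library in turn gave 7 to 12 higher and 21 to 26 lower entries, 1 to 2 higher (2 without CCL7 replicate 2, where Kdm7a passed) and 5 lower past 1.5-fold, and a median of -0.19 to -0.12. Hdac1-ps lost its call without control replicate 2, control replicate 3 or CCL7 replicate 1.

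Entries without a call turned sign as follows, and the cause was not tested. With the deposited totals, and with limma at pseudocounts 1 and 0.1, the log2 changes were -0.218, -0.143 and -0.213 for Hdac4, -0.214, -0.199 and -0.212 for Kat14, -0.226, -0.206 and -0.224 for Kdm1a, -0.111, -0.107 and -0.113 for Kdm4a, -0.181, -0.161 and -0.187 for Setd1a, -0.103, -0.0974 and -0.109 for Kmt2b, -0.196, -0.180 and -0.194 for Hdac2 and -0.231, -0.174 and -0.222 for Hdac7. Upper quartile scaling gave -0.0668 for Hdac4, -0.0603 for Kat14, -0.0718 for Kdm1a, -0.0305 for Setd1a, -0.0418 for Hdac2 and -0.0770 for Hdac7. Without the filter values were 0.0138 for Ehmt1, 0.0336 for Kdm8, 0.0271 for Kat5 and 0.0183 for Kmt5b, and at a mean FPKM of at least 5 they were -0.0392 for Kat14, -0.0507 for Kdm1a, -0.00635 for Setd1a and -0.0209 for Hdac2. Over the libraries left out in turn, values ranged from -0.0335 to 0.109 for Hdac4, from -0.00436 to 0.0482 for Kdm1a, from -0.00667 to 0.0582 for Kat14, from -0.0307 to 0.0353 for Hdac7, from -0.0756 to 0.0525 for Ehmt1, from -0.169 to 0.0519 for Kat6a, from -0.173 to 0.124 for Kmt2d, from -0.0788 to 0.0334 for Kmt5b, from -0.00908 to 0.163 for Setd1a, from -0.0393 to 0.0103 for Kdm8 and from -0.0554 to 0.00829 for Kat5.

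With the replicate block, 49 of 50 entries kept their result and Kmt2e was called lower (-0.23, edgeR adjusted p = 0.0399), giving 8 higher and 24 lower. Deviations of same-numbered libraries correlated at -0.08, -0.04 and -0.02, and those of differently numbered libraries at -0.04 to 0.08. These values show no strong shared deviation by number, and they do not settle whether the libraries were paired. Paralogue ratios kept their sign in all 16 pairs under the alternatives run for them, mainly leaving out each library in turn. Because the groups did not overlap in any of the 16 pairs, leaving out a library could not turn a sign. The kept signs are therefore no evidence that the ratios are robust. Groups of 3 limit every exact test to p = 0.1, and small changes depend on the scaling.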
